A study of Homo sapiens with 12 samples.

Results

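The 9 genes described here encode receptors, or receptor subunits, for the growth factors that drive blood cell production: KIT, CSF1R, FLT3, CSF2RA, IL3RA, CSF2RB, CSF3R, EPOR and IL6R. They were picked by gene symbol from the 20003 genes of the expression tables. The study asked whether the compound OGP46 drives leukemia cells to differentiate. NB4 is a cell line from a patient with acute promyelocytic leukemia that carries the fusion gene PML-RARα, and Kasumi-1 is an acute myeloid leukemia line with the translocation t(8;21), which joins RUNX1 to RUNX1T1. In each line, 3 samples were incubated with DMSO, the solvent, as control and 3 with OGP46 at 1 μM. The incubation is taken as 48 h from the study's methods, whereas a figure legend of the study gives a longer one. Each line is 1 cell line from 1 patient, so a difference between NB4 and Kasumi-1 cells is a difference between these cultures.

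Growth factor receptors set which cytokines a blood progenitor can answer. KIT, CSF1R and FLT3 are receptor tyrosine kinases, which carry their own kinase and bind stem cell factor, M-CSF and FLT3 ligand. The other members are cytokine receptors without a kinase of their own, and they signal through JAK kinases and STAT factors. CSF2RA and IL3RA bind GM-CSF and IL-3 and share the signalling subunit CSF2RB, whereas CSF3R binds G-CSF, EPOR binds erythropoietin, and IL6R binds IL-6 and signals through IL6ST, also called gp130. KIT and FLT3 mark stem and progenitor cells, and CSF1R and CSF3R mark the monocyte and granulocyte branches.

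Values were FPKM, fragment counts scaled by transcript length and library size, so levels of different genes may be set side by side. FPKM summed to between 248207 and 310262 per sample, and the depth behind them is unknown. Differences are given on the log2(FPKM + 0.1) scale, which understates those of low genes. A gene was called when its Benjamini-Hochberg adjusted p in limma, over all genes tested, was below 0.05 and its log2 difference at least 0.58 (1.49-fold). Over all genes, OGP46 moved the median by 0.18 in NB4 cells and by 0.05 in Kasumi-1 cells. When the samples were rescaled to equal totals, centred on their medians or quantile normalised, the NB4 median became 0.06, -0.04 or -0.01, and the 183 genes called in NB4 cells became 0, 0 and 0, with 1764 to 1950 genes at an unadjusted p below 0.05. RUNX1T1, part of the t(8;21) fusion, was at 8.17 to 9.66 FPKM in the 6 Kasumi-1 samples and at 0 to 0.0762 in the 6 NB4 samples. NB4 control 2 and NB4 control 3 held a low level of genes that mark Kasumi-1 cells, which bears on KIT, CSF3R and the promyelocyte markers below. Of 6 genes listed as Kasumi-1 markers, 5 were called higher in Kasumi-1 controls, IGFBP7 being the exception at 28.1 to 37.6 FPKM in NB4 cells. Of 3 listed for NB4 cells, DEFB1 separated the lines, at 3.50 to 32.6 FPKM in NB4 and 0 in Kasumi-1 samples, whereas HGF, at 11.5 to 18.2 FPKM in Kasumi-1 cells, was called higher in Kasumi-1 controls (0.61, adjusted p 0.00848) and CEBPE was not called. The labels number the samples but do not call them separate cultures, so p-values measure only the spread between these samples.

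The stretches just before the start sites of the receptor genes are shown for the 5 that were called between the lines, with CSF1R added for its values with OGP46. They are reference sequence from RefSeq (GRCh38.p14), cut where a GENCODE exon begins, and a window was held for 8 of the 9 genes. Capitals mark matches, on either strand, to 4 short motifs of blood transcription factors: TGTGGT for RUNX, GAGGAAG for PU.1, TTGCNNAA for C/EBP and AGATAA for GATA. Among 35116 windows of 250 bases, 11.0%, 11.2%, 9.05% and 9.17% held each of them, in that order.
KIT, chr4:54657707-54657917, plus strand: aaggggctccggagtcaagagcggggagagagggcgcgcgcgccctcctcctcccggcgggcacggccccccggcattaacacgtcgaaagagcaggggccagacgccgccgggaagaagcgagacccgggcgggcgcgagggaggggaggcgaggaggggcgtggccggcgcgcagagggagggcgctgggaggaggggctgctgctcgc
CSF3R, chr1:36483315-36483564, minus strand: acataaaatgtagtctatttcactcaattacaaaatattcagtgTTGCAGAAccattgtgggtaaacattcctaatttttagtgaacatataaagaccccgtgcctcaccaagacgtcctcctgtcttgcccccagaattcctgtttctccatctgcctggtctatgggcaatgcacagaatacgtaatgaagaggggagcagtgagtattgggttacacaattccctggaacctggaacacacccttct
IL6R, chr1:154405093-154405192, plus strand: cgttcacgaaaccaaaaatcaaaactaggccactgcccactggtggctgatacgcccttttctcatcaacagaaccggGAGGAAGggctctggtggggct
FLT3, chr13:28100593-28100826, minus strand: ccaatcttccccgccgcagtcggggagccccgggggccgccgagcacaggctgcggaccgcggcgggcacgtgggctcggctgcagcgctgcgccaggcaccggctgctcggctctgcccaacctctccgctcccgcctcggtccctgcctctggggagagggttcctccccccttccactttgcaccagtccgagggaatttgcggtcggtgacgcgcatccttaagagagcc
EPOR, chr19:11384315-11384564, minus strand: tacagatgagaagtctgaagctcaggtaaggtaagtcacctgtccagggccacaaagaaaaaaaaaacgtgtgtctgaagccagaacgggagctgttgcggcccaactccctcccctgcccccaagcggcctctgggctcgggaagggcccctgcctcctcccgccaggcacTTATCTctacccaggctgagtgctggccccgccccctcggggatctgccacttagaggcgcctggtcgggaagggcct
CSF1R, start of the shorter transcript, chr5:150086608-150086804, minus strand: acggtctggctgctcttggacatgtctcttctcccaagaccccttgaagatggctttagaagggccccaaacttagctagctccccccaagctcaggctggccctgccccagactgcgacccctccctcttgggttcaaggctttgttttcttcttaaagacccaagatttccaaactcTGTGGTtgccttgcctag
The KIT and FLT3 stretches held none of the 4 motifs. CSF3R held 1 C/EBP match and EPOR 1 GATA match. IL6R held 1 PU.1 match within its 100 bases, as did 4.35% of stretches of that length and place, and the CSF1R stretch shown held 1 RUNX match, as did 8.83%. The stretch at the upstream CSF1R start (chr5:150113373-150113615, 243 bases) held no match to any of the 4. A match is a description of letters, and whether a factor bound there was not measured.

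By the listed FPKM, the lines differed most in KIT and CSF3R, which dominated the receptor RNA of Kasumi-1 cells, and in IL6R, which led in NB4 cells. In Kasumi-1 controls, KIT had a mean of 128.4 FPKM (rank 291 of 20003 genes) and CSF3R of 92.5 (rank 412), and the highest mean of the other 7 was 2.72, that of EPOR. In NB4 controls, IL6R led at 13.6 FPKM (rank 3049), followed by CSF3R at 5.01, FLT3 at 4.29, CSF1R at 1.88, EPOR at 1.26, CSF2RB at 1.14 and KIT at 0.616. The sample ranges of neighbours in that order overlapped, except those of IL6R and CSF3R and those of FLT3 and CSF1R. In Kasumi-1 controls the order after CSF3R was EPOR, FLT3 (1.76), CSF2RB (1.54), CSF1R (1.37) and IL6R (0.898), and the ranges of the last 4 overlapped with their neighbours. The 9 genes together summed to 26.0 to 33.3 FPKM in NB4 samples and to 207.6 to 239.1 in Kasumi-1 samples. KIT made up 51.4% to 60.6% of that sum in Kasumi-1 samples and CSF3R 35.3% to 44.9%, while IL6R made up 40.1% to 52.5% in NB4 samples. In such bulk samples, fewer cells with a receptor and less of its RNA per cell cannot be told apart.

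**Figure D1:**
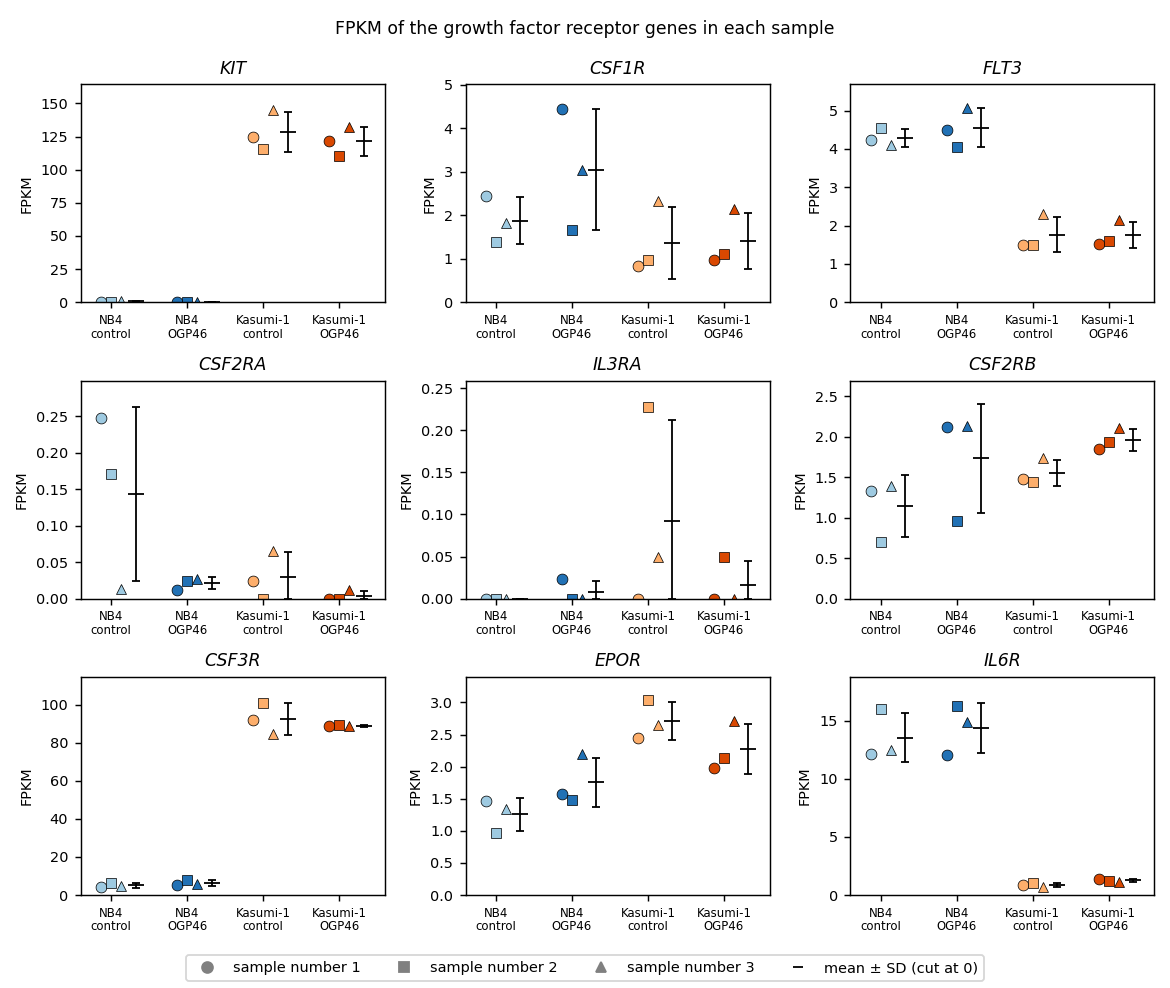
FPKM (linear axes from 0, a scale of its own for each gene) of the 9 receptor genes in the 12 samples, with marker shapes for the sample number and bars for mean ± SD, n = 3. KIT and CSF3R stand far higher in Kasumi-1 samples and IL6R and FLT3 in NB4 samples, while control and OGP46 samples of a line mostly overlap.

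Of the 7 genes that passed the filter of a mean of 0.1 FPKM, 3 were called higher in Kasumi-1 than in NB4 controls (KIT, CSF3R and EPOR) and 2 lower (FLT3 and IL6R). Over all genes, 29.7% were called higher and 22.7% lower, so calls between these lines were common. The groups did not overlap for 6 of the 7, CSF1R being the exception, against 77.7% of all genes. Over all 6 samples of each line, OGP46 samples included, KIT and CSF3R were higher and FLT3 and IL6R lower in Kasumi-1 cells with no overlap.

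**Figure D2:**
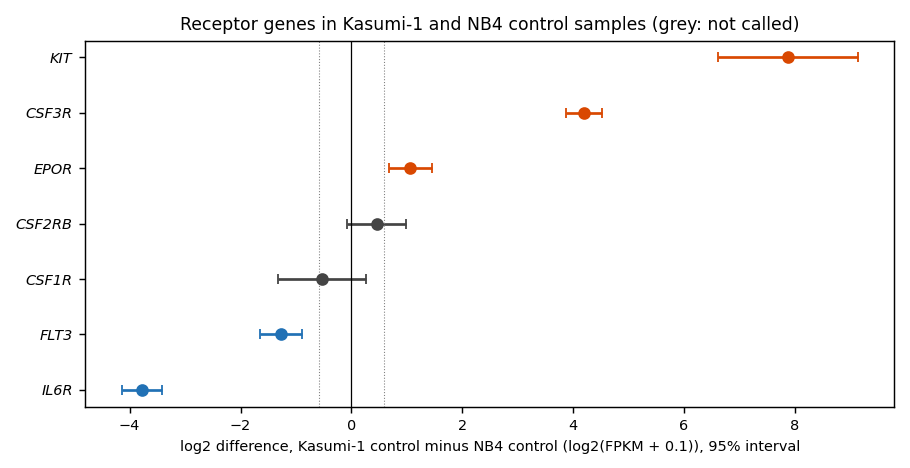
Log2 difference, Kasumi-1 control minus NB4 control on the log2(FPKM + 0.1) scale, with 95% intervals from limma (n = 3 against 3) and dotted lines at the minimum difference for a call. KIT, CSF3R and EPOR (orange) lie above 0, FLT3 and IL6R (blue) below, and CSF2RB and CSF1R (grey) were not called.

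KIT, the receptor for stem cell factor (chr4:54657957-54740715), was at 124.5, 115.9 and 144.9 FPKM in the 3 Kasumi-1 controls and at 122.0, 110.0 and 132.2 with OGP46. In NB4 cells it was at 0.0953, 0.532 and 1.22 FPKM in controls and at 0.184, 0.464 and 0.166 with OGP46. Every Kasumi-1 sample thus lay far above every NB4 sample, whereas the NB4 groups overlapped. The log2 difference between the lines was 7.87 (SE 0.55, adjusted p 2.04e-06 by limma). With OGP46 it was -0.64 (SE 0.63, adjusted p 0.507) in NB4 cells and -0.08 (SE 0.09, adjusted p 0.718) in Kasumi-1 cells, where KIT was lower in 3 of 3 same-numbered pairs at 0.98, 0.95 and 0.912 of control, as were 13.8% of all genes tested. Neither passed the test.

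Among the 3 NB4 controls, KIT was highest where genes that mark Kasumi-1 cells were highest; with OGP46 it was highest in number 2, where RUNX1T1 was at 0 and CD34 lowest. NB4 control 3 held 1.31 FPKM of CD34, a stem cell surface marker, 0.0762 of RUNX1T1 and 0.202 of TRH, all 3 of them the highest NB4 values, and ELANE, the neutrophil elastase gene, was at 0.504, 3.30 and 14.5 FPKM in the 3 NB4 controls. As a share of the Kasumi-1 control mean, KIT in NB4 control 3 was 0.95%, CD34 1.35%, RUNX1T1 0.895% and TRH 0.55%. In NB4 control 2 the markers disagreed more, with RUNX1T1 at 0.37%, CD34 at 0.16% and TRH at 0. The Kasumi-1 level was then subtracted, scaled by the median share of the listed markers RUNX1T1, TRH and POU4F1 in each sample. That median equalled the RUNX1T1 share (0, 0.37% and 0.895% in the controls, and 0.0326%, 0 and 0.0717% with OGP46). After the subtraction, KIT was at 0.0953, 0.0570 and 0.0700 FPKM in the NB4 controls and at 0.143, 0.464 and 0.0739 with OGP46. The log2 difference with OGP46 then turned from -0.64 to 0.73, and that between the lines became 9.53. No direction of KIT with OGP46 in NB4 cells can be read from these samples, and how the Kasumi-1 genes came to be in NB4 control 3 was not tested.

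**Figure D3:**
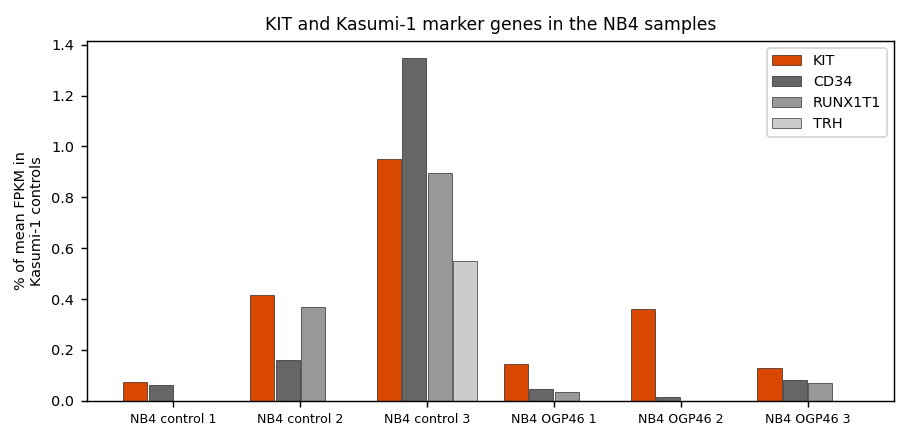
FPKM of KIT, CD34, RUNX1T1 and TRH in the 6 NB4 samples as a percentage of the mean in Kasumi-1 controls (bars from 0, 1 bar per sample and gene). All 4 genes peak in NB4 control 3, where KIT is at 0.95%, and KIT alone of the 4 stands out in NB4 OGP46 2.

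CSF1R, the M-CSF receptor of monocytes and macrophages (chr5:150053295-150113365), was at 2.44, 1.37 and 1.82 FPKM in NB4 controls and at 4.44, 1.67 and 3.03 with OGP46. Each OGP46 sample was above the control of its number, by 1.82-, 1.21- and 1.67-fold, as held for 52.9% of all genes tested in NB4 cells, yet the groups overlapped because sample number 2 was the lowest in both. The log2 difference was 0.60 (SE 0.33, 95% interval -0.16 to 1.37, adjusted p 0.254 by limma), which was not called. With the sample number as a block the SE fell to 0.13 and CSF1R was called (adjusted p 0.00921). Under the block with median centring the difference was 0.38 (adjusted p 0.104), and with rescaling to equal totals 0.48 (adjusted p 0.0451), below the minimum for a call. Without NB4 OGP46 1 it was 0.29, and without NB4 OGP46 2 it was 0.97, neither of them called.

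In the same NB4 samples, 5 of 7 tested monocyte markers (of 8 listed) were called higher with OGP46 without the block and 6 with it. Of all genes tested, 1.45% and 5.06% were called higher. C5AR1, a complement receptor, was at 1.68, 0.722 and 0.934 FPKM in controls and at 7.46, 3.18 and 3.30 with OGP46 (log2 difference 1.93, adjusted p 0.0432), and like CSF1R it was lowest in number 2 of both groups. ITGAM, the CD11b integrin, differed by 1.08 (adjusted p 0.0233). The 8 markers summed to 285.2 to 407.2 FPKM in NB4 controls and to 292.4 to 400.0 with OGP46, since lysozyme (LYZ) made up most of the sum, and FCGR3A was at 0 in every sample. With the block, 3 of 6 tested neutrophil markers were also called higher and 4 of 5 promyelocyte markers lower, against 0 of each without it. CSF3R, a receptor of this report, is on the neutrophil list and was not among those called. The 9 listed neutrophil markers, CSF3R included, summed to 66.2 to 117.0 FPKM in NB4 controls and to 152.7 to 358.1 with OGP46. The 5 promyelocyte markers summed to 2605 to 3945 and 1586 to 2812. All 5 promyelocyte markers were called higher in Kasumi-1 than in NB4 controls, ELANE by the most (log2 difference 8.91). By the RUNX1T1 share, NB4 controls 2 and 3 held 0.37% and 0.895% of the Kasumi-1 level, though in control 2 TRH was at 0 and CD34 at 0.16%. How much this added to the promyelocyte calls was not tested. The part of these cell type markers in the CSF1R values was not tested.

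In Kasumi-1 cells, CSF1R was at 0.823, 0.963 and 2.32 FPKM in controls and at 0.962, 1.10 and 2.15 with OGP46. Sample number 3 was more than the other 2 combined in both groups, and the difference with OGP46 was 0.09 (SE 0.37, adjusted p 0.932). Against NB4 controls, Kasumi-1 controls differed by -0.53 (SE 0.35, 95% interval -1.33 to 0.27, adjusted p 0.198). Without Kasumi-1 control 3 that difference was -0.96 and called (adjusted p 0.00775), so 1 library decided it.

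FLT3, the FLT3 ligand receptor of early progenitors (chr13:28003274-28100576), was at 4.23, 4.54 and 4.10 FPKM in NB4 controls and at 4.50, 4.06 and 5.07 with OGP46. In Kasumi-1 cells it was at 1.50, 1.49 and 2.29 FPKM in controls and at 1.51, 1.59 and 2.15 with OGP46. NB4 samples were all above Kasumi-1 samples, and number 3 was the highest of both Kasumi-1 groups, as for CSF1R. The difference between the lines was -1.26 (SE 0.17, adjusted p 1.16e-04 by limma). With OGP46 the differences were 0.08 (95% interval -0.18 to 0.34, adjusted p 0.659) in NB4 and 0.005 (95% interval -0.41 to 0.42, adjusted p 0.993) in Kasumi-1 cells, and their signs turned with the scaling of the samples.

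The ligand-binding subunits of the GM-CSF and IL-3 receptors were near 0 in both lines. CSF2RA (chrX:1268814-1325218) was at 0.248, 0.170 and 0.0133 FPKM in NB4 controls and at 0.0121 to 0.0269 with OGP46, and at 0 to 0.0659 in Kasumi-1 samples. IL3RA (chrX:1336785-1382689) was listed at 0 in all 3 NB4 controls, and its highest value in any sample was 0.228, in Kasumi-1 control 2. Both fell below the filter of the main fit. Without that filter CSF2RA differed with OGP46 in NB4 cells by -0.86 (SE 0.40, adjusted p 0.25; 0.203 with the block) and IL3RA by 0.10 (adjusted p 0.566). In Kasumi-1 cells these differences were -0.29 (adjusted p 0.537) and -0.57 (adjusted p 0.608), so neither gene was called in either line. The paper, in contrast, names CSF2RA among its NB4 genes of the cytokine-cytokine receptor interaction pathway, without a direction.

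These 2 genes lie in the pseudoautosomal region PAR1, a stretch that the X and Y chromosomes share, and the other PAR1 genes were low as well. SLC25A6, an ADP/ATP carrier of mitochondria that most cells use, was at 0.564 to 2.04 FPKM in 11 samples and at 8.65 in Kasumi-1 OGP46 1. Its relative SLC25A5, on the X chromosome outside PAR1 and added after the values were seen, was at 360.5 to 478.9 FPKM. CD99, a surface protein of most leukocytes, was at 0.0676 to 0.846 FPKM in 11 samples and at 18.5 in Kasumi-1 OGP46 1. SHOX, CRLF2 and ASMT were at 0 in all 12, and the 15 genes together summed to 1.98 to 4.47 FPKM in all samples but that one, where they summed to 28.5. A value near 0 for CSF2RA or IL3RA can therefore not be read as absence of their RNA, and the cause was not tested.

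CSF2RB, the common beta subunit (chr22:36913628-36940439), was at 1.33, 0.699 and 1.39 FPKM in NB4 controls and at 2.11, 0.957 and 2.13 with OGP46. In Kasumi-1 cells it was at 1.47, 1.43 and 1.73 FPKM in controls and at 1.84, 1.93 and 2.11 with OGP46. It was above the same-numbered control in 3 of 3 pairs of either line, by 1.37- to 1.59-fold in NB4 and by 1.22- to 1.35-fold in Kasumi-1 cells, where the groups did not overlap. Of all genes tested, 52.9% were higher in 3 of 3 NB4 pairs and 31.7% in 3 of 3 Kasumi-1 pairs, and 22.6% did not overlap between the Kasumi-1 groups. The log2 difference was 0.54 (SE 0.34, 95% interval -0.25 to 1.32, adjusted p 0.315) in NB4 and 0.33 (SE 0.12, 95% interval 0.07 to 0.59, adjusted p 0.227) in Kasumi-1 cells. With the block the adjusted p was 0.0158 and 0.0922, and the size stayed below the minimum for a call. Kasumi-1 controls were 0.46 above NB4 controls (SE 0.24, adjusted p 0.108), with no overlap.

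CSF3R, the G-CSF receptor of granulocytes (chr1:36466043-36483314), was at 4.02, 6.20 and 4.80 FPKM in NB4 controls and at 5.05, 8.10 and 5.75 with OGP46. In Kasumi-1 cells it was at 91.98, 101.1 and 84.4 FPKM in controls and at 88.8, 89.6 and 88.7 with OGP46. Kasumi-1 samples were all above NB4 samples, and the log2 difference between controls was 4.20 (SE 0.14, adjusted p 5.95e-08). With OGP46 the difference was 0.32 in NB4 cells (SE 0.20, adjusted p 0.318, or 0.034 with the block, still below the minimum size). There 3 of 3 pairs were higher, as held for 52.9% of all genes tested. In Kasumi-1 cells the difference was -0.05 (95% interval -0.21 to 0.11, adjusted p 0.756). With the Kasumi-1 signal subtracted as for KIT, CSF3R was at 4.02, 5.855 and 3.98 FPKM in NB4 controls and at 5.02, 8.10 and 5.68 with OGP46.

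EPOR, the erythropoietin receptor (chr19:11377207-11384314), was at 1.47, 0.967 and 1.34 FPKM in NB4 controls and at 1.58, 1.49 and 2.20 with OGP46, without overlap. Of all genes tested in NB4 cells, 34.7% did not overlap between the groups, and 52.9% were higher in 3 of 3 pairs. In Kasumi-1 cells it was at 2.45, 3.04 and 2.66 FPKM in controls and at 1.98, 2.13 and 2.71 with OGP46, with overlap. The group means of the lines were closer with OGP46, at 1.75 (NB4) and 2.28 FPKM (Kasumi-1), than in controls, at 1.26 and 2.72. Neither difference with OGP46 was called: it was 0.45 (SE 0.20, adjusted p 0.181, or 0.0449 with the block) in NB4 and -0.25 (SE 0.13, adjusted p 0.389, or 0.207 with the block) in Kasumi-1 cells. The difference of the 2 responses was not called either (adjusted p 0.373 by limma), so a convergence of the lines was not established. Between controls, Kasumi-1 cells were 1.06 above NB4 cells (SE 0.17, adjusted p 3.65e-04). Of 8 erythroid markers only KLF1, an erythroid transcription factor, passed the filter. Like EPOR, KLF1 was called higher in Kasumi-1 controls (1.44, adjusted p 0.00182), at 0.918 to 1.14 FPKM against 0.197 to 0.585 in NB4 controls. GATA1, a listed regulator of receptor genes, was called the other way (-2.23, adjusted p 1.69e-04 by limma). It was at 0.189 to 0.587 FPKM in NB4 controls and at 0 in all 3 Kasumi-1 controls. Of other regulators on that list, TAL1 and LMO2 were called higher in Kasumi-1 controls, and GATA2 was not called. HBG1, HBG2, ALAS2 and AHSP were at 0 in all 12 samples, and the part of erythroid genes in the EPOR values was not tested.

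IL6R, the ligand-binding subunit of the IL-6 receptor (chr1:154405343-154469450), was at 12.1, 16.0 and 12.5 FPKM in NB4 controls and at 12.0, 16.3 and 14.9 with OGP46. In Kasumi-1 cells it was at 0.891, 1.08 and 0.728 FPKM in controls and at 1.39, 1.24 and 1.12 with OGP46. NB4 samples were all above Kasumi-1 samples, and the Kasumi-1 groups did not overlap, at 1.15- to 1.56-fold within the pairs. The Kasumi-1 groups did not overlap for 22.6% of all genes tested. The difference between the lines was -3.78 (SE 0.16, adjusted p 1.16e-07). With OGP46 it was 0.45 (SE 0.16, 95% interval 0.09 to 0.80, adjusted p 0.23; 0.0883 with the block) in Kasumi-1 and 0.09 (SE 0.14, adjusted p 0.704) in NB4 cells. Its partner IL6ST showed the opposite order of the lines, at 1.30 to 2.01 FPKM in NB4 and 4.07 to 6.22 in Kasumi-1 samples (log2 difference of controls 1.58, adjusted p 1.53e-06). With OGP46, IL6ST differed by 0.33 (adjusted p 0.192) in NB4 and by 0.32 (adjusted p 0.176) in Kasumi-1 cells.

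Counted together, 0 of the 7 tested receptors were called with OGP46 in NB4 cells, where 1.56% of 11750 genes were called in either direction and 1.45% higher. With the sample number as a block 1 of 7, CSF1R, was called, against 6.21% of all genes in either direction and 5.06% higher. In Kasumi-1 cells 0 of 7 were called without or with the block, against 0.0338% and 0.617% of 11835 genes. The groups did not overlap for 1 of 7 in NB4 cells (EPOR) and for 2 of 7 in Kasumi-1 cells (CSF2RB and IL6R), against 34.7% and 22.6% of all genes. The median difference of the 7 was 0.32 in NB4 cells, where that of all genes was 0.18, and 0.005 in Kasumi-1 cells, where that of all genes was 0.05. At an unadjusted p below 0.05 stood 0 of the 7 in NB4 cells, against 29.1% of all genes, and 2 of the 7 (CSF2RB and IL6R) in Kasumi-1 cells, against 15.6%.

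**Figure D4:**
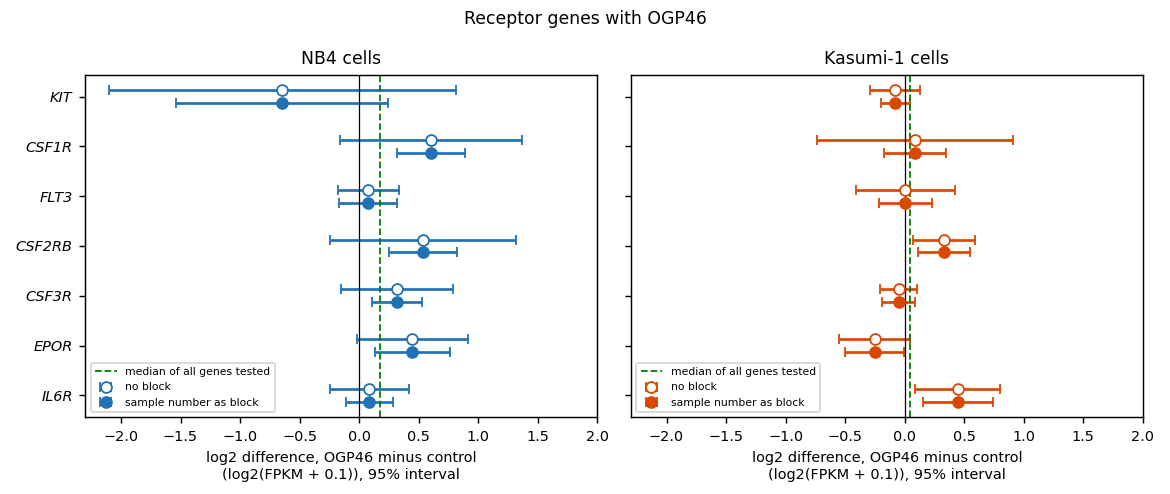
Log2 difference, OGP46 minus control on the log2(FPKM + 0.1) scale, for the 7 receptors tested in each line, with 95% intervals from limma without (open) and with (filled) the sample number as a block (n = 3 against 3); the dashed line is the median of all genes tested. The block narrows most intervals, and only CSF1R in NB4 cells was called with it.

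**Figure D5:**
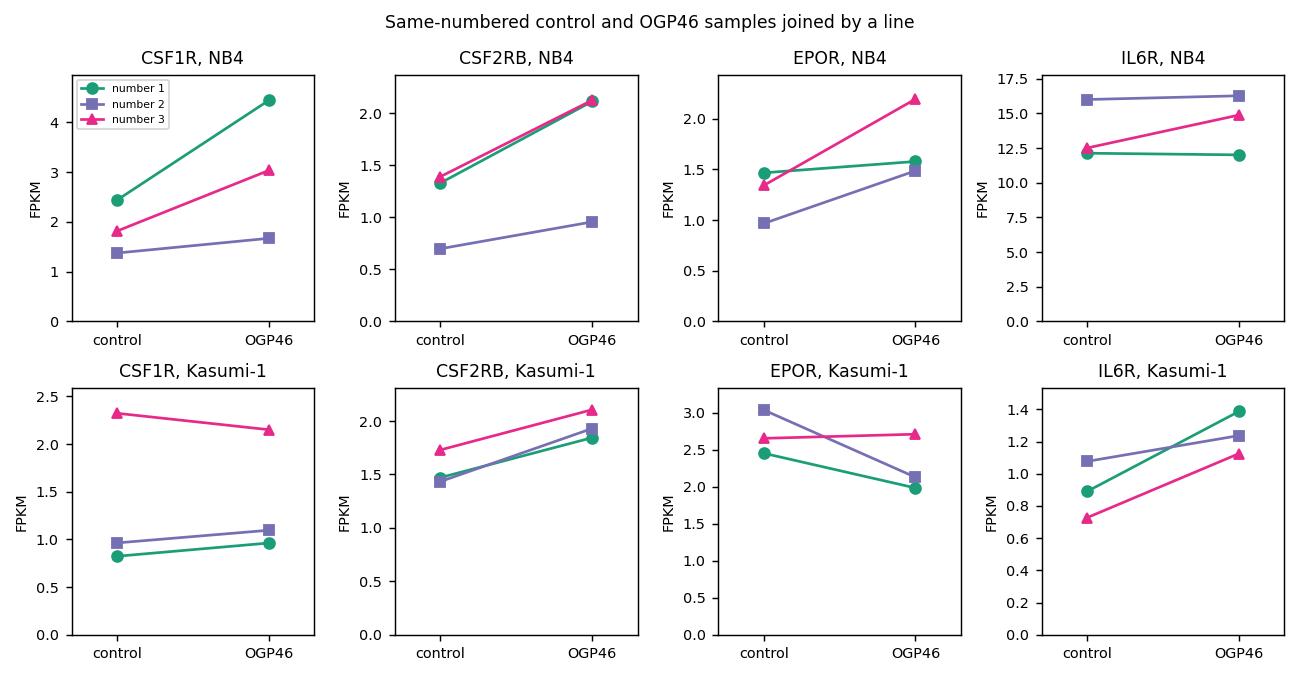
FPKM (linear axes from 0) of CSF1R, CSF2RB, EPOR and IL6R with a line joining the control and OGP46 sample of each number, NB4 above and Kasumi-1 below. CSF1R, CSF2RB and EPOR go up in all 3 NB4 pairs, and CSF2RB and IL6R in all 3 Kasumi-1 pairs, as did 52.9% and 31.7% of all genes tested in the 2 lines.

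Whether the receptors answered OGP46 differently in the lines was tested as the difference of the 2 responses, Kasumi-1 minus NB4. None of the 7 was called, with or without the block, against 0% and 1.93% of 12309 genes. EPOR came nearest without the block (-0.70, SE 0.26, adjusted p 0.373; 0.11 with the block) and CSF3R with it (-0.37, SE 0.09, adjusted p 0.085). For CSF1R the difference was -0.52 (95% interval -1.79 to 0.76, adjusted p 0.737), and with the block its interval was -0.93 to -0.10 (adjusted p 0.189).

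Several receptors, but not all, kept the same order of sample numbers in both groups of a line. In NB4 cells number 2 was the lowest for CSF1R, CSF2RB and EPOR, and the highest for CSF3R and IL6R, in controls and with OGP46 alike. In Kasumi-1 cells number 3 was the highest for KIT, CSF1R, FLT3 and CSF2RB and the lowest for IL6R in both groups. CSF1R of Kasumi-1 number 3 was at 169.6% of its group mean in controls and 153.3% with OGP46, and FLT3 at 130.2% and 122.9%. Against this, FLT3 of NB4 number 2 was the highest in controls (105.9%) and the lowest with OGP46 (89.3%). KIT of NB4 number 3 was likewise the highest in controls (198.1%) and the lowest with OGP46 (61.2%). In Kasumi-1 cells EPOR was highest in number 2 in controls and in number 3 with OGP46.

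Ligands of these receptors were scarce. None of 12 ligand genes had a mean of 1 FPKM in any group, and CSF2, IL3 and IL5, the genes of GM-CSF, IL-3 and IL-5, were at 0 in all 12 samples. KITLG, the stem cell factor gene, was at 0.515, 0.513 and 0.876 FPKM in Kasumi-1 controls and at 0.682, 0.978 and 1.04 with OGP46, while NB4 samples held at most 0.0112. Kasumi-1 cells thus held RNA of both KIT and its ligand (log2 difference of KITLG between controls 2.79, adjusted p 6.2e-06), and with OGP46 KITLG differed by 0.46 (adjusted p 0.35) there. FLT3LG was at 0.125 to 0.435 FPKM in all samples, and CSF1, the M-CSF gene, was at 0.114 to 0.256 in NB4 and at most 0.0352 in Kasumi-1 samples. The highest value of any sample was 0.0498 FPKM for IL34, 0.101 for CSF3, 0.129 for EPO and 0.0134 for IL6.

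Few genes that carry or limit the signal of these receptors were called with OGP46, as held for all genes. Of all genes tested, 1.56% were called in NB4 and 0.0338% in Kasumi-1 cells, and 6.21% and 0.617% with the block. Of 20 JAK-STAT and adaptor genes, 0 of 19 tested were called in NB4 and 0 of 20 in Kasumi-1 cells, without or with the block, and the median difference was 0.27 and 0.15 against 0.18 and 0.05 for all genes. Of 17 negative regulators, SH2B3, the adaptor LNK that restrains JAK2 and KIT, rose in NB4 cells from 17.8, 15.1 and 15.2 to 27.5, 23.0 and 24.4 FPKM (log2 difference 0.64, adjusted p 0.0335). The block added PTPRC, the phosphatase CD45 (0.81, adjusted p 2.54e-04), and in Kasumi-1 cells no negative regulator was called. All OGP46 calls in NB4 cells without the block were lost when the samples were rescaled.

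Of 16 genes that STAT5 or growth factors are known to induce, 2 were called in NB4 cells, both higher, against 1.45% of all genes. EGR1, an immediate early transcription factor, was at 0.736, 0.996 and 0.950 FPKM in controls and at 1.53, 2.69 and 3.15 with OGP46 (1.31, adjusted p 0.0434). DUSP6, a phosphatase that dampens ERK signalling, was at 41.9, 25.7 and 33.8 FPKM in controls and at 89.0, 56.0 and 76.4 with OGP46 (1.13, adjusted p 0.0385). Both rose together in every NB4 pair. PIM1, a kinase gene induced by STAT5, was called only with the block and in opposite directions: 0.71 in NB4 cells (adjusted p 6.93e-04) and -0.86 in Kasumi-1 cells (adjusted p 0.0067). Its FPKM was 7.32, 3.13 and 5.83 against 11.2, 5.01 and 10.6 in NB4 cells and 4.96, 5.85 and 5.95 against 3.10, 2.49 and 3.58 in Kasumi-1 cells. The difference of these responses was -1.57 (adjusted p 0.24; 0.00387 with the block). EGR1 was also called higher in Kasumi-1 cells with the block (0.87, adjusted p 0.0122).

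Receptors such as CSF1R and IL6R can be cut from the cell surface by ADAM proteases. Of 5 tested genes of receptor shedding (of 7 listed), ADAM9 was called higher in NB4 cells (0.69, adjusted p 0.0432), the block added ADAM8 (0.61, adjusted p 0.0114), and the median was 0.53 against 0.18 for all genes. Of all genes tested in NB4 cells, 1.45% were called higher without the block and 5.06% with it. ADAM17, the main sheddase of IL6R, was at 6.68, 5.61 and 6.18 FPKM in controls and at 9.19, 7.92 and 9.70 with OGP46. Its difference was 0.53 (adjusted p 0.0519), just outside both thresholds, and in Kasumi-1 cells it was 0.26 (adjusted p 0.147). Of 21 tested transcription factors that control receptor genes (of 24), CEBPB rose in NB4 cells from 12.4, 9.33 and 10.9 to 19.3, 20.3 and 17.9 FPKM (0.82, adjusted p 0.0289). With the block EGR2, a factor of monocyte development, was added (1.05, adjusted p 0.0301), at most 0.232 FPKM in any sample. In Kasumi-1 cells NFE2 was called lower with the block (-0.93, adjusted p 0.0487), at 0.302, 0.535 and 0.324 FPKM in controls and 0.144, 0.187 and 0.125 with OGP46.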

How the data were processed

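RNA from 12 samples was sequenced after preparation with a stranded mRNA kit, and the authors deposited FPKM per gene symbol for each sample. The submitters' processing notes name Trimmomatic, HISAT2, Cufflinks, HTSeq and the build hg38; versions are not given in the sources used here. Rows whose symbols had been turned into dates (27 per file) were removed, leaving 20003 genes.

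Genes whose mean reached 0.1 FPKM were tested as log2(FPKM + 0.1) with limma 3.58.1 (R 4.3.3; trend in the moderation), and p-values were adjusted over all genes tested. An exact permutation test of 3 against 3 samples cannot go below 0.1 and was not used. The fits were run on simulated data whose samples were drawn independently, without an effect of the sample number. Those data therefore cannot show whether the block is warranted. Groups and sample numbers came from the titles. Within a line, deviations of same-numbered samples correlated (r 0.197 to 0.622 in NB4 and 0.157 to 0.395 in Kasumi-1 cells). Those of unlike numbers ranged from -0.468 to 0.224 in NB4 and from -0.278 to 0.101 in Kasumi-1 cells, so the NB4 ranges overlapped. The numbers were taken to pair the samples on the basis of the data alone, and blocked calls rest on a pairing that was not established. Blocked values are given where they bear on a call. Between lines, same-numbered samples did not correlate (mean r -0.012 for controls). The receptors and gene lists were chosen with earlier results of these data known. Every receptor and its direct ligands and partners are named, as are PAR1 genes, list genes called with OGP46, and the 2 genes most alike in pattern. Alternatives were other pseudocounts, filters, scalings, moderation, array weights, the block, subtraction of Kasumi-1 signal from NB4 samples, and leaving out each sample.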

Additional observations from a re-analysis of the deposited data

How the results depend on the processing

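The 5 receptors called between the lines were called in all 13 alternatives to the fit, and leaving out each sample gave 5 to 6 calls. CSF1R was added without Kasumi-1 control 3, and CSF2RA, which then just passed the filter, without NB4 control 3. In NB4 cells the count of receptors called with OGP46 went from 0 to 1 (CSF1R) with the replicate block. The block changed no other call among the receptors. The NB4 difference of FLT3 turned to -0.047 (rescaling to equal totals) or -0.14 (median centring or quantile normalization), without or with the block where both were run, and that of IL6R to -0.040, -0.13 and -0.10. Without 1 sample each, they ranged from -0.0033 to 0.15 and from -0.0078 to 0.21. In Kasumi-1 cells FLT3 turned to -0.062 with median centring (also with the block), to -0.064 with quantile normalization and to -0.10 with array weights, and CSF1R to -0.11 with array weights. Without 1 sample each, Kasumi-1 CSF1R ranged from -0.24 to 0.52, FLT3 from -0.14 to 0.20, CSF3R from -0.12 to 0.015 and KIT from -0.15 to 0.011. For the difference of the responses, FLT3 turned to 0.070 (equal totals), 0.077 (median centring), both also with the block, and 0.059 (quantile normalization). With the Kasumi-1 signal subtracted, KIT turned to 0.73 in NB4 cells and its difference of responses to -0.81. Without 1 sample each, the difference of responses ranged from -0.57 to 0.081 for CSF2RB, from -0.071 to 1.31 for KIT and from -0.22 to 0.12 for FLT3. None of the values that turned was called; the cause was not tested. Depth is unknown, so how firmly values under 1 FPKM are fixed cannot be given, and 3 samples a group leave wide intervals for CSF1R, CSF2RB and KIT.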

Other observations

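For each of the 7 receptors whose mean reached 1 FPKM in either line, the 2 genes most alike in pattern were sought by Pearson's r of log2(FPKM + 0.1) over the 12 samples, among 9942 genes. These r values mostly reflect the difference between the 2 lines and are a description with no test. KIT varied most like PLCG1 and EGFL7 (r 0.998 and 0.998), CSF3R like LY6E and FXYD5 (0.999 and 0.999), and IL6R like NR2F2 and SLC50A1 (0.998 and 0.997). FLT3 varied most like IRF8 (0.991), a transcription factor of monocytes and dendritic cells, and PAXIP1 (0.985). IRF8 was at 20.8 to 32.3 FPKM in NB4 samples and at 0.389, 0.649 and 1.65 in Kasumi-1 controls, and so was highest in Kasumi-1 number 3, as were FLT3 and CSF1R. The 3 receptors that differed less between the lines had looser neighbours: CSF1R had IQGAP3 and CENPU (0.925 and 0.917), CSF2RB had ABTB1 and RELB (0.945 and 0.943), and EPOR had CDH24 and ELP4 (0.972 and 0.962).

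Of 9 tested related receptors (of 17), 1 was called in NB4 cells with OGP46 without the block and 3 with it, all higher. Of all genes tested, 1.45% and 5.06% were called higher. IL10RB was called without the block (0.60, adjusted p 0.0451 by limma), and IL10RA (1.60, adjusted p 6.42e-06) and IFNGR1 (0.62, adjusted p 0.00111) with it. IL10RA was at 2.68, 0.439 and 1.99 FPKM in controls and at 8.56, 1.48 and 6.35 with OGP46, and so was lowest in number 2, as was CSF1R. IFNGR2, the other chain of the interferon gamma receptor, differed by 0.57, below the minimum for a call. In Kasumi-1 cells IL10RA was at most 0.117 FPKM.

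Of 20 JAK-STAT and adaptor genes, 4 were called higher and 5 lower in Kasumi-1 than in NB4 controls, against 29.7% and 22.7% of all genes, so the shares were not above those of all genes together. The signalling genes named here were chosen after their values were seen. JAK3 was at 4.15 to 5.84 FPKM in Kasumi-1 and at 0.0125 to 0.0583 in NB4 controls (5.25, adjusted p 6.74e-08), and STAT5A was higher by 1.91 (adjusted p 1.65e-05). SYK, a kinase of immune receptors, was at 0.841 to 1.35 FPKM in Kasumi-1 and at 18.6 to 19.7 in NB4 controls (-3.95, adjusted p 9.88e-08). SOCS1, a feedback inhibitor of JAK kinases, was listed at 0 in all 3 Kasumi-1 controls and at 2.17 to 2.85 FPKM in NB4 controls. Of 23 tested regulators of receptor genes, 10 were called higher and 7 lower in Kasumi-1 controls. CEBPA, a factor that activates CSF3R, was among the lower ones (-3.23, adjusted p 8.48e-08), and CEBPB, CEBPD and CEBPE were not called. The part of these regulators in the CSF3R values was not tested.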
